A study of Arabidopsis thaliana with 8 samples.

Results

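The shoot transcriptome of Arabidopsis thaliana under 2 iodide salts was compared with that of untreated plants and of plants given bromide, on 4 of the 8 arrays of the series. The shoot arrays were chosen by their label (leaves). The NaI and KI arrays formed the iodide side, and the control and KBr arrays formed the other side. Plants 3 weeks old were grown in hydroponics on a base nutrient solution that held iodine only as a trace contaminant. Control plants stayed on this solution, and the other groups received 10 µM KBr, NaI or KI in the same solution for 48 h. The plants were of the Columbia ecotype, and no mutant or transgenic line was named. Each sample was a pool of rosettes from 3 plants, hybridised to 1 ATH1 array. The iodide side thus holds 2 different salts and not 2 replicates of 1 treatment, and KI shares its cation with KBr while NaI does not. The array carries short probes against Arabidopsis transcripts, and the authors summarised each set of probes as a MAS5 signal, an intensity on a linear scale.

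Land plants take up iodide through the root and carry part of it to the leaves. Iodine is not counted among the essential plant nutrients, and in excess iodide is harmful to leaves, where oxidation can turn it into reactive iodine. Leaf cells hold many of their antioxidant enzymes, including ascorbate peroxidases, thioredoxins and superoxide dismutases, in the chloroplast, and their defence genes respond to salicylic acid and jasmonate.

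Of 22746 probe sets other than Affymetrix controls, 12544 had a signal of at least 100 on all 4 shoot arrays and are called measured here. For each, the mean log2 difference was taken as the mean of NaI and KI minus the mean of control and KBr. The gap was the log2 distance between the nearest arrays of the 2 sides. A probe set was called higher or lower when that gap reached 1.5-fold. By this rule 235 probe sets were called higher on both iodide arrays, 1.87% of those measured, and 137 were called lower, 1.09%. Among the probe sets called higher, 150 differed by under 2-fold between the side means, 65 by 2-fold to under 3-fold and 20 by 3-fold or more, and among those called lower the counts were 105, 29 and 3. The excess of higher over lower calls depended on scaling, since 63.2% of the calls were higher in the deposited signals and 48.4% (170 higher, 181 lower) when each array was scaled to its own median. With 1 array per treatment no replicate spread exists, no test was made, and every count and fold describes these 4 arrays.

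**Figure D1:**
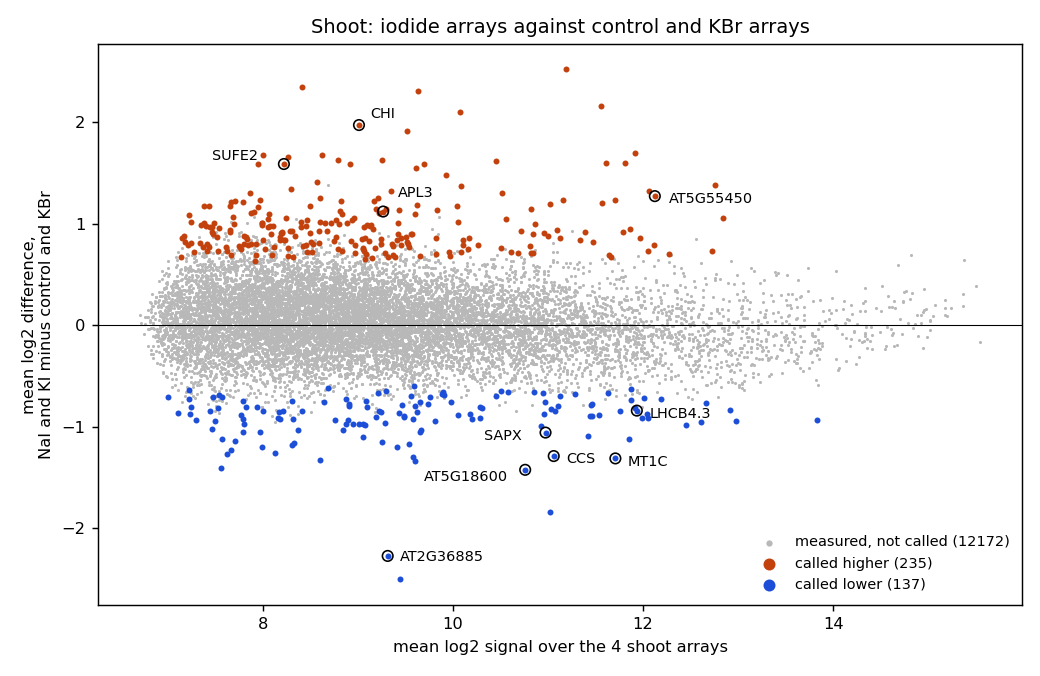
Each point is 1 of the 12544 measured probe sets, with its mean log2 signal over the 4 shoot arrays on the x axis and its mean log2 difference (NaI and KI minus control and KBr) on the y axis. The 235 called higher (orange) and 137 called lower (blue) lie on both sides of a dense band around 0, and 10 genes that the text names are ringed.

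Differences within a side give a yardstick for these changes. Over the measured probe sets the median size of the log2 difference was 0.16 between KBr and control and 0.17 between KI and NaI, against 0.21 between the side means. KBr and control agreed within 25% (the brighter over the dimmer) for 195 of the 235 probe sets called higher and 128 of the 137 called lower, against 80.8% of all measured. NaI and KI agreed within 25% for 204 and 111 of them, against 77.7%. Agreement within a side helps a probe set to meet the rule, so these shares describe the calls. Of the 235, 138 were more raised in NaI than in KI, and of the 137, 59 were more lowered in NaI, while 49.7% of all measured probe sets were brighter in NaI than in KI.

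The arrays differed in some controls along the same split. The signal of the 25S ribosomal RNA control was 9457 on the control array, 8261 on the KBr array, 5039 with NaI and 4606 with KI. The ratio of the 3′ to the 5′ GAPDH control was 1.51 and 1.60 on the control and KBr arrays and 1.88 and 1.77 on the NaI and KI arrays, while that of actin (9.35, 12.6, 9.46 and 6.41) did not follow the split. Other control pairs went both ways. In another GAPDH pair the ratio was lower on both iodide arrays. Its 3′ signals were 12391, 11704.5, 9948 and 9628, and its 5′ signals 13147, 10895, 11271 and 12146. In another actin pair the ratio was higher on both. Its 3′ signals were 15628, 14061, 14213 and 13266, and its 5′ signals 8199, 6926, 6747 and 6240. Median signals over the measured probe sets were 485, 495, 514 and 509 in the same order. The part of RNA composition or quality in the calls was not tested. Tissue markers could be checked for 5 of 48 listed genes. RCA, the rubisco activase of leaf mesophyll, had signals of 30287 to 36838 on the shoot arrays and at most 90.3 on the root arrays, and the root hair expansins EXPA7 and EXPA18 had at most 36.4 and 77.7 in shoot. FMA, a guard cell factor, lay between 175 and 210, and the trichome gene TRY between 51.6 and 102, with the sides of TRY overlapping. In bulk tissue, fewer cells of a type and less RNA per cell cannot be told apart.

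Gene names could be given to 109 of the 235 probe sets called higher and 76 of the 137 called lower. The rest had no single gene in the annotation used here, among them those with the widest gap in each direction. Probe set 251625_at had a signal of 857 on the control array, 1114 with KBr, 6235 with NaI and 5043 with KI, and 262947_at was at 1555, 1774, 293 and 293. Signals are given below in this order of arrays (control, KBr, NaI, KI), and a fold is the ratio of the geometric means of the sides.

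Transcripts linked to defence were among those raised. CHI (At2g43570), a chitinase, which cuts the chitin of fungal cell walls, had signals of 245, 278, 1234 and 850, a 3.93-fold difference and the widest gap of any named gene called higher. At2g43590 followed with 152, 137, 470 and 450 (3.20-fold). In both genes the 2 sides were far apart, and NaI exceeded KI more clearly in CHI. At3g28220, a gene of the TRAF-like family, was at 139, 146, 607 and 303. At5g18470, annotated as a mannose-binding lectin, was at 433, 392, 1229 and 860. These transcripts were more raised in NaI than in KI, and none differed by more than 25% between control and KBr.

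Of the 33 genes on the salicylic acid list, only 5 had a probe set naming 1 gene, and 3 of these were measured. The call counts below therefore leave most of the list unseen. The 3 lay higher on both iodide arrays, with a median mean log2 difference of 0.91 against 0.04 for all measured probe sets, and 1, CHI, reached the call. SAG101, which acts with EDS1 in disease resistance signalling, and WRKY53, a transcription factor of senescence and defence, did not reach it. Their mean log2 differences were 0.52 and 0.91, and WRKY53 was raised mainly in NaI (157, 158, 414 and 212). On the jasmonate and ethylene list of 38, 5 genes had a probe set naming 1 gene and 4 were measured. These 4 also lay higher on both iodide arrays, with a median of 0.81, and 0 were called. They were the defensin genes PDF1.2 (423, 446, 1163 and 577) and PDF1.2b (158, 412, 1016 and 437), the thionin gene THI2.1 (142, 111, 226 and 187) and OPCL1, an enzyme of jasmonate synthesis (844, 822, 1409 and 1059). PDF1.2b was read by a probe set with shared probes, and its KBr and KI signals were nearly level, so its difference rests on NaI and on the low control. Among all measured probe sets 31% lay higher without overlap and 24.3% lay lower without overlap, and lists of 3 or 4 genes say little beside such shares. The same shares stand behind every count without overlap given below.

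The list for phenylpropanoids and flavonoids held 25 genes, of which 5 had a probe set naming 1 gene and 4 were measured. DFR, the dihydroflavonol reductase that commits flavonoids to anthocyanins, had signals of 674, 548, 927 and 1009. At4g14090, listed as an anthocyanin glucosyltransferase, was at 656, 453, 896 and 1048, and UGT78D2, a flavonoid 3-O-glucosyltransferase, at 492, 414, 658 and 683. These 3 were higher on both iodide arrays by 1.34-fold to 1.37-fold at the nearest arrays, under the call, and UF3GT overlapped. The list's median was 0.62.

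Several enzymes of carbon and sulfur metabolism were called higher. APL3, a large subunit of ADP-glucose pyrophosphorylase, the enzyme that supplies starch synthesis, was at 392, 445, 905 and 913 (2.17-fold). AMY1, a secreted alpha-amylase that degrades starch, was at 163, 164, 449 and 331. Pyruvate metabolism contributed PDC2, a pyruvate decarboxylase of ethanolic fermentation (2112, 1780, 3257 and 3693), and PPDK, the pyruvate orthophosphate dikinase (657, 691, 1321 and 1129). The PDC2 call ended when arrays were scaled to their medians. For sulfur, SUFE2, an activator of the cysteine desulfurase in iron-sulfur cluster assembly, rose from 173 and 171 to 548 and 491 (3.01-fold). MGL, the methionine gamma-lyase that breaks methionine down, was at 127, 115, 239 and 237. APS4, an ATP sulfurylase of sulfate assimilation, was at 1274, 1393, 2017 and 2229, a gap of 1.45-fold and under the call, while SIR, the sulfite reductase of the same pathway, was at 2937, 3110, 3042 and 2853, with overlapping sides.

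**Figure D2:**
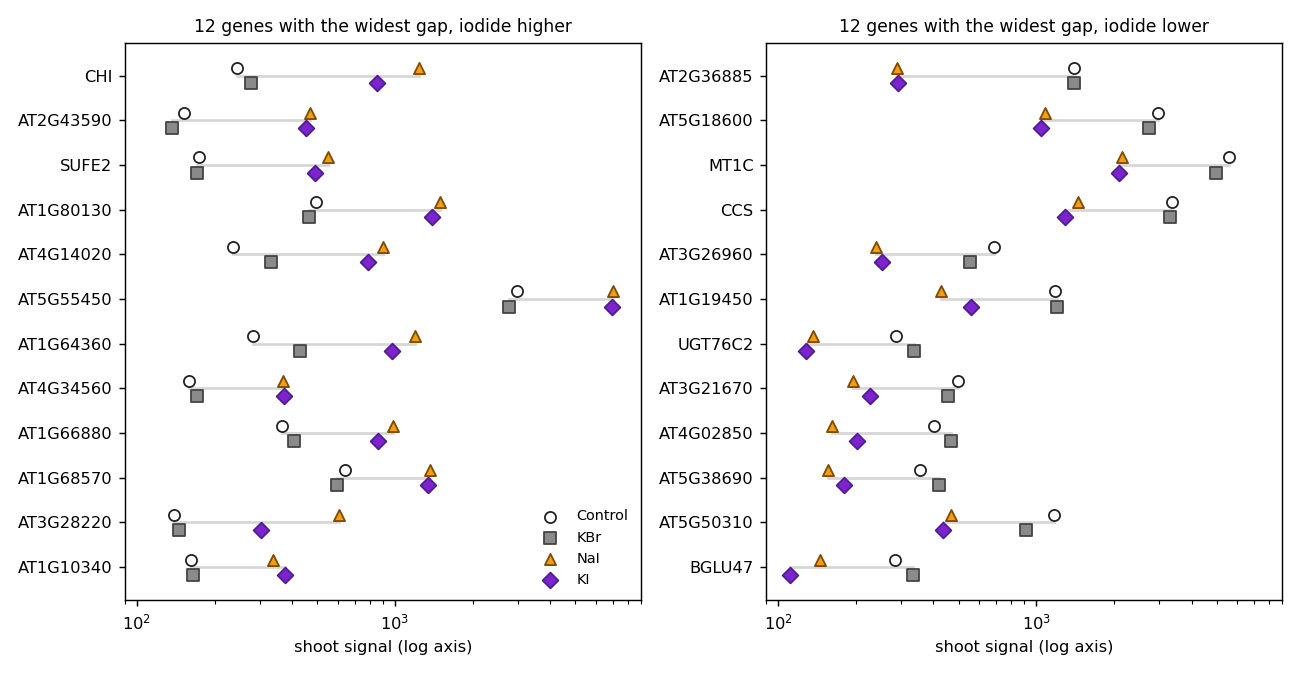
Signals on a log axis of the 12 named genes with the widest gap higher (left) and lower (right) on the iodide arrays, 1 marker per shoot array. In every row both iodide arrays lie beyond both of the others, and NaI and KI stand visibly apart in CHI and At3g28220.

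Membrane transporters moved in both directions. At1g68570 (NPF3.1), of the NRT1/PTR family of nitrate, peptide and hormone transporters, was called higher at 638, 596, 1365 and 1343. Its relative At3g21670 (NPF6.4) was called lower at 500, 457, 195 and 227. Of 6 measured family members (27 listed), those were the only ones called. At2g26690 (NPF6.2) was lower by a gap of 1.27-fold and At1g59740 higher by 1.21-fold, and the glucosinolate transporters GTR1 and GTR2 had mean log2 differences of 0.02 and 0.03 with overlapping sides. At5g14120, of the major facilitator superfamily, was called lower at 3099, 3224, 1905 and 2041, a call that ended after quantile normalisation.

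Other genes called higher act on proteins, walls and chromatin. UBP15, a ubiquitin-specific protease that promotes leaf growth, was at 425, 439, 683 and 672. ARL, an ARGOS-like promoter of organ size, was at 350, 251, 601 and 591, and HDA15, a histone deacetylase, at 224, 238, 460 and 417. The subtilase SBT3.5 (138, 117, 220 and 212) and the pectin methylesterase PMEPCRF (791, 928, 1526 and 1581) are proteins of the cell wall space. The calls of UBP15 and SBT3.5 ended after quantile normalisation and under median scaling. Of 27 measured ubiquitin-conjugating enzymes, ubiquitin-specific proteases and U-box ligases, 13 lay higher and 4 lower without overlap, 1 was called, and the median was 0.19. Over all measured probe sets 31% lay higher and 24.3% lower without overlap.

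Among the transcripts with a signal of at least 1000 on all 4 arrays, 39 were called higher and 41 lower, out of 2977. The widest gap among the raised named genes was that of At5g55450, at 2973, 2775, 6973 and 6908. At5g42050 (1660, 1326, 3673 and 3332), At1g67360 (1412, 1233, 2660 and 2613) and At4g01610 (2353, 2791, 4914 and 4801) came next, each with NaI and KI close together. With a lower signal, At1g80130 (494, 466, 1495 and 1393), At4g14020 (236, 332, 899 and 785) and At1g66880 (366, 405, 984 and 857) had some of the widest gaps. These 7 genes are listed by locus code alone in the annotation used, and no role is given for them.

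The lowered side was led by At2g36885, annotated by the study as a translation initiation factor, at 1402, 1399, 288 and 291 (4.84-fold). Its signals agreed closely within each side. Next came At5g18600, from the list of CC-type glutaredoxins, at 2959, 2732, 1078 and 1040 (2.69-fold). These small redox proteins are specific to land plants. Of 5 measured members of 19 listed, 2 were called lower, the other being At4g15660 (394, 240, 100 and 133), whose KI and NaI signals lie near the minimum and whose call ended under median scaling because its NaI signal fell below 100. At1g06830 was also lower without overlap, while At2g47880 and At2g30540 lay higher, with mean log2 differences of 0.60 and 0.69, so the family did not move as 1 group.

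Some genes for copper-binding and antioxidant proteins were called lower. MT1C, a metallothionein that binds copper and zinc, was at 5575, 4997, 2156 and 2094 (2.48-fold). CCS, the chaperone that loads copper into the copper and zinc superoxide dismutases, was at 3369, 3313, 1448 and 1290 (2.44-fold). SAPX, the stromal ascorbate peroxidase that removes hydrogen peroxide in chloroplasts, was at 3011, 2801, 1772 and 1098, lower in KI than in NaI. Other copper proteins, chosen here after their values were seen, went the other way. LPR2, a multicopper oxidase, was called higher (453, 381, 700 and 684), a call that ended under both scalings, and CuAO1, a copper amine oxidase, was at 288, 345, 603 and 450, under the call. The metallothioneins of the MT1 type are close copies of each other, and probes may be shared among them. Of the 6 measured genes of reactive oxygen and ascorbate enzymes (26 listed), CCS and SAPX were called lower, 5 lay lower without overlap, 0 lay higher without overlap, and the median was -0.37. Over all measured probe sets 24.3% lay lower and 31% higher without overlap. GR, the plastid glutathione reductase, had a mean log2 difference of -0.51 without reaching the call. TAPX, the thylakoid ascorbate peroxidase, overlapped at 0.01, and ATMDAR2, a monodehydroascorbate reductase outside the list, lay the other way at 1030, 1077, 1636 and 1546.

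Some enzymes that reduce oxidised proteins lay lower too, in families chosen after their values were seen. Of 5 measured methionine sulfoxide reductases, which repair oxidised methionine, MSRB6 was called lower (677, 644, 281 and 403) and MSRB5 and MSRA5 were lower without overlap, whereas MSRB9 was higher without overlap and MSRB3 overlapped. The thioredoxin ty2 of chloroplasts was at 4495, 4612, 3052 and 2624, the thioredoxin TRXF2, which activates Calvin cycle enzymes in light, at 1522, 1512, 1199 and 1015, and NTRC, a plastid thioredoxin reductase, at 3302, 3227, 2574 and 2208. None of these 3 reached the call, and the other 4 measured members of their family had overlapping sides.

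**Figure D3:**
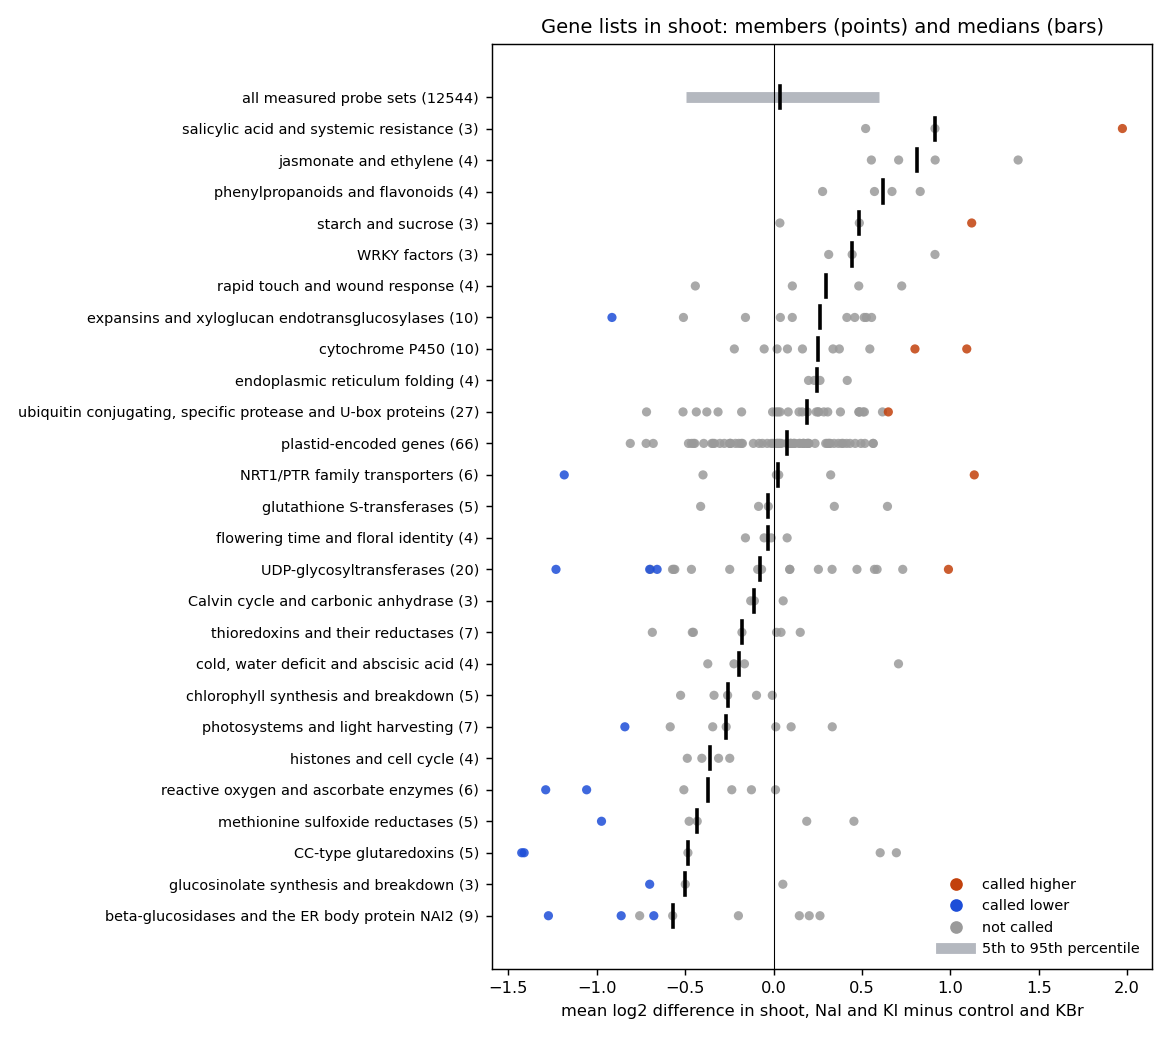
Mean log2 difference in shoot of every measured member (points) of the lists and families with at least 3 measured genes (cell type markers and the study's own selections left out), with the number measured in brackets, list medians as black bars, and the top row showing the 5th to 95th percentile of all 12544 measured probe sets as a grey bar. Orange points were called higher and blue points lower, and most lists hold few called members. The medians run from -0.57 (beta-glucosidases with NAI2, a family chosen after its values were seen) to 0.91 (salicylic acid).

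Some transcripts of the photosynthetic apparatus lay lower on both iodide arrays. LHCB4.3, a minor antenna protein of photosystem II, was called lower at 5824, 4718, 3067 and 2790, a call that ended after quantile normalisation. Its relatives differed, as LHCB4.2 had a mean log2 difference of -0.34 and LHCB4.1 of 0.10 with overlapping sides. PSAN, a lumenal subunit of photosystem I, was at 19146, 16887, 11666 and 12320.5, under the call. Of 7 measured nuclear photosystem genes (43 listed), 4 lay lower and 1 higher without overlap, PSAE-1 being the higher one, with a median of -0.27. Over all measured probe sets 24.3% lay lower and 31% higher without overlap. In tetrapyrrole synthesis HEMB1, the enzyme that forms porphobilinogen, was called lower at 4183, 3836, 2548 and 2504, a call that also ended after quantile normalisation. CHLI2, a magnesium chelatase subunit, was at 1970, 1821, 1304 and 1327, and CHLM, the next enzyme of the chlorophyll branch, had a mean log2 difference of -0.34. Of the 5 measured chlorophyll genes on the list (20), 3 lay lower without overlap and 0 were called. Lists this short say little beside those shares. The Calvin cycle genes moved little, with PRK at -0.13, SBPASE at -0.11 and RCA at 0.05.

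Some genes of protein folding and processing were called lower as well. Cpn60beta2, a subunit of the chaperonin that folds plastid proteins, was at 5222, 5337, 3249 and 3167. PDF1A, a peptide deformylase, was at 1150, 919, 578 and 604. CLPP4, of the plastid Clp protease, was at 4783, 5202, 3690 and 3669, lower without overlap but under the call.

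Transcripts of the plastid genome itself, measured for 66 of 84 listed genes, moved little in either direction. None was called, 25 lay higher, 17 lay lower and 24 overlapped, with a median of 0.08, while under median scaling 20 lay higher and 21 lower, with a median of 0.01. The most lowered was petN, a small subunit of the cytochrome b6f complex, at 788, 760, 370 and 526. The most raised were the ribosomal protein gene rpl33, at 7148, 7676, 10122 and 11845, and ndhD, of the plastid NAD(P)H dehydrogenase, at 10567, 11899, 15560 and 17640. Genes of 1 complex went both ways, for the ribosomal genes rpl20 (-0.48) and rpl16 (-0.45) were lower while rpl33 (0.56) and rpl32 (0.46) were higher. The labelling kit primes from the poly(A) tail, which most plastid transcripts lack, so these signals are a less direct readout than those of nuclear genes.

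Enzymes that build and cleave glycosides were called in both directions. UGT76C2, which conjugates cytokinins with glucose, was at 287, 336, 137 and 128 (2.35-fold). UGT74B1, the glucosyltransferase of glucosinolate synthesis, was at 1791, 1788, 1124 and 1077, and UGT71C4 at 1218, 1179, 753 and 765. UGT87A2 went the other way at 400, 403, 862 and 737. Of 20 measured UDP-glycosyltransferases, 3 were thus called lower and 1 higher, 8 lay lower and 5 higher without overlap, and the median was -0.08, close to the 0.04 of all measured probe sets.

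Beta-glucosidases, which release sugars from glycosides, had a median of -0.57 over 9 measured genes, counted together with NAI2. NAI2 is not a beta-glucosidase, and this family was chosen after its values were seen. BGLU47 (283, 332, 145 and 111) and BGLU25 (1215, 1180, 786 and 712) were called lower. NAI2, a protein needed to form ER bodies, was also called lower at 185, 187, 104 and 101, next to the signal minimum, and the call ended under both scalings as a signal fell below 100. PYK10, the main beta-glucosidase of those bodies, was at 364, 327, 168 and 249, under the call. BGLU44, BGLU40 and BGLU33 lay higher by small gaps, with mean log2 differences of 0.15 to 0.26.

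Among lowered transcripts listed by locus code alone, At3g08740 (8174, 7532, 3784 and 4171) and At5g08050 (5704, 5707, 3090 and 3132) were among the most abundant. At1g19450 (1185, 1206, 426 and 557) and At3g26960 (688, 555, 240 and 252) had wider gaps. No role is given for these 4 genes.

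Growth and signalling genes were also present among the lowered transcripts. RR16, a type-A response regulator of cytokinin signalling, was at 1072, 1055, 590 and 585, and it was the only measured gene of 18 listed for gibberellin, cytokinin and brassinosteroid. EXPA16, an expansin that loosens cell walls, was called lower at 365, 423, 186 and 234, while EXPA8 and EXPA15 lay higher with mean log2 differences of 0.52 and 0.51. Of 10 measured expansins and xyloglucan endotransglucosylases, 5 lay higher and 2 lower without overlap, or 3 higher under median scaling. The 4 measured histone H2B genes all lay lower without overlap, from -0.25 for HTB4 to -0.49 for HTB11, and 0 were called. As 24.3% of all measured probe sets lay lower in this way, 4 related genes say little.

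Lists in which 0 measured members were called also include endoplasmic reticulum folding and flowering time. All 4 measured folding genes lay higher without overlap (median 0.25, BZIP60 highest at 0.42), as did 31% of all measured probe sets. For flowering time only 4 of 42 listed genes were measured, and all 4 overlapped (-0.16 to 0.08), so most of that list was not seen. In the rapid touch and wound list STZ, a zinc finger factor of stress responses, overlapped (277, 166, 469 and 268), and of the 4 measured genes 1 lay higher and 1 lower without overlap. In the cold and water deficit list COR15B was at -0.37 and LTI30 at 0.71 (533, 566, 1051 and 765). Among the 10 measured P450 genes, CYP71B23 (373, 263, 762 and 585) and CYP71B22 (184, 172, 342 and 281) were called higher, and both calls ended under quantile normalisation and under median scaling. The iron regulator PYE was at 352, 254, 500 and 520. The glutathione transferases GSTL3 and GSTU18 went opposite ways, with mean log2 differences of 0.64 and -0.41. Of the study's own selections on these arrays, as far as they are listed here (32 raised genes, which may not be all, and 15 lowered ones), 12 and 9 had a probe set of their own in the annotation used. Of these, CHI, At1g64360, At3g28220 and At2g36885 met the signal minimum on all 4 arrays, and all 4 were called, which is not independent of their selection. At1g64360 was at 283, 429, 1196 and 970.

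The fold threshold falls within a continuous range of gaps. BGLU25 lay just inside it among the lowered genes, with a gap of 1.501-fold, and At5g22340 just outside at 1.496-fold. Among the raised genes At4g28400 (542, 459, 925 and 814) lay just inside and At4g17900 (281, 266, 424 and 421) just outside. With a gap of at least 25% the rule gave 957 higher (7.63%) and 645 lower (5.14%), and at 2-fold 42 and 12.

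Root arrays of the same 4 treatments share no array with shoot and were not used in the calls. Their RNA was extracted by another method than that of leaves, so tissue and extraction cannot be told apart between them. Of the 235 probe sets called higher in shoot, 156 were also measured in root (signal of at least 100 on all 4 root arrays), and 33 of these were called higher and 4 lower there. Over all 10476 probe sets measured in both tissues, 3.78% were called higher in root and 3.06% lower. Of the 137 called lower in shoot, 95 were measured in root, and 15 were called lower and 2 higher. The root mean log2 difference had the same sign as in shoot for 100 of the 156 and 65 of the 95, while 42.6% of all probe sets measured in both lay above 0 in root and 57.4% below. Most probe sets called in shoot therefore did not reach the call in root. These shares were not tested, since probe sets are not replicates.

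**Figure D4:**
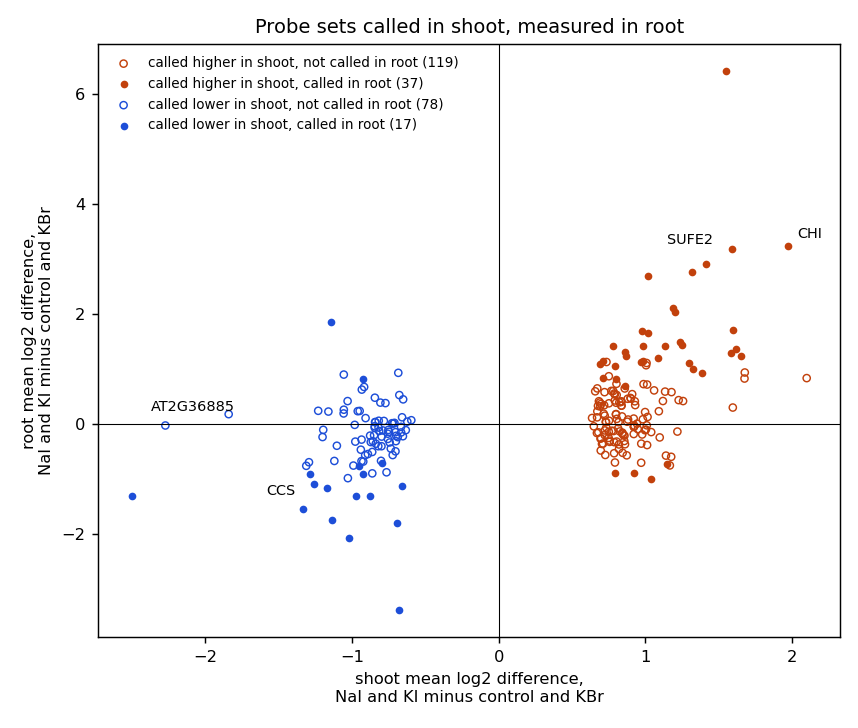
Mean log2 difference in root (y axis) against that in shoot (x axis) for the 251 probe sets called in shoot and measured in root, filled where also called in root. Raised probe sets such as CHI and SUFE2 lie high on both axes, while At2g36885 lies at -2.27 in shoot and near 0 in root.

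CHI was more changed in root than in shoot, at 688 on the control array, 1157 with KBr, 8574 with NaI and 8356 with KI. SUFE2 was at 160, 232, 1679 and 1822 in root. Root values of the lectin gene At5g18470 were 341, 496, 2921 and 2644, and those of At5g44400, a berberine bridge enzyme-like oxidase called higher in shoot (844, 664, 1420 and 1627), were 314, 291, 2254 and 1683. CCS was lower in root too, at 1565, 1650, 863 and 849. At5g14120 had a much larger change in root, from 6629 and 5890 to 557 and 633. At2g36885, the most lowered named gene in shoot, had a root mean log2 difference of -0.03.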

How the data were processed

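Signals of the 4 shoot arrays (control, KBr, NaI, KI) were used, with the 4 root arrays for comparison. The authors summarised probes with MAS5, and the deposited table holds linear intensities with a 2% trimmed mean near 500 on every array. No source used here names MAS5 settings or a genome build, so no coordinates are printed. Log2 values, differences and gaps were computed in Python 3.11.15 with numpy 2.4.6 and pandas 2.3.3, and plots with matplotlib 3.10.9. With 1 array per treatment, precision is limited by the number of arrays.

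Of 22810 probe sets, 13513 name 1 gene in the platform annotation, 503 name several and 8794 none, and symbols were updated through RefSeq (TAIR10.1, names only) for 13436. Where a gene had several probe sets, the brightest was used. The genes named were the 12 with the widest gap in each direction, the 8 widest at a signal of at least 1000, up to 4 called members per list (or the 2 with the largest difference) and the study's qPCR genes for shoot where measured, 77 in all. Of those qPCR genes only At2g36885 was measured by a probe set naming 1 gene, so the others are not named here. Probe sets without a gene were still counted among the calls, and the annotation used does not tell whether they read any of those genes. Families of UDP-glycosyltransferases, beta-glucosidases, thioredoxins, methionine sulfoxide reductases, ubiquitin enzymes and NRT1/PTR transporters, and all other genes named, were chosen after their values were seen. Members and lists were chosen with earlier results of these data known. Of 37 lists, 1 mistaken member was removed and the organelle lists were matched again by locus tag. The lists for phosphate, aquaporins, ribosomal proteins, cellulose synthases and mitochondrial genes had 0 members with a probe set naming 1 gene, so their signals were not looked at. Those for nitrate, peroxidases and anion transport had 1, 1 and 2 such members, and 0 of these were measured. The call rule was run on simulated arrays with smaller differences within a side than the real ones. That run checked its arithmetic and gives no error rate for these data.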

Additional observations from a re-analysis of the deposited data

Results flagged for a closer look

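Among the 77 genes named by the rule, 6 that were called in shoot had both root iodide arrays on the opposite side of control and KBr, with the brighter side at a signal of at least 100, and these differences between tissues were not tested. The nitrate transporter family gene At3g21670 had a mean log2 difference of -1.18 in shoot and 2.74 in root, where its signals were 44.1 on the control array, 37.9 with KBr, 350.5 with NaI and 213 with KI, so that it was not measured there by the signal minimum. At4g34560 was at 1.17 in shoot and -0.76 in root, and At1g67870 at 0.73 and -0.57, the latter's shoot call ending under median scaling. The root differences of the other genes were small, namely 0.24 for UGT76C2 (-1.23 in shoot), 0.19 for SAPX (-1.06 in shoot) and -0.12 for At2g03510 (0.72 in shoot). RR16 also lay the other way, at root signals of only 17.1 to 21.3, and so did BGLU25, named outside the rule, at 0.52 in root and -0.68 in shoot.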

How the results depend on the processing

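The numbers of probe sets called higher (235) and lower (137) changed by more than 1.5 times with the fold (957 and 645 at a gap of 25%, 42 and 12 at 2-fold), with no signal minimum (889 and 852), with the mean difference in place of the gap (667 and 367), and when only probe sets naming 1 gene were counted (109 and 76). When any 1 array had to reach 100, the higher count was 366. Leaving out each array in turn gave 475 to 587 higher and 263 to 357 lower, as a gap over 3 arrays is easier to meet, with the highest counts without the KBr array (587 higher) and without the NaI array (357 lower). Signal minimums of 50 and 200, the probe set types kept, quantile normalisation (180 and 155) and median scaling (170 and 181) stayed within 1.5 times. After quantile normalisation 67 of the 235 higher and 14 of the 137 lower calls were lost, and after median scaling 66 and 3. Of 462 recomputed differences of named genes, 437 moved by no more than the spread within the sides and 25 moved by more. Leaving out 1 array cannot move a difference beyond that spread or turn the sign of a called gene. The 25 therefore all came from the 2 normalisations, and the leave-one-out runs are no check on these differences. The 2 normalisations moved a named gene by at most 0.12 on the log2 scale, and 0 of those called changed sign. No paired analysis was possible because each treatment has 1 array. Signals near 100 lie close to background and carry the least certain folds.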
